A study of Homo sapiens with 8 samples.

Results

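The segment described here is a 15 Mb stretch of the long arm of human chromosome 8, from 113 to 128 Mb of GRCh38, which holds 51 protein-coding genes, MYC among them. Its members are the listed regions that overlap chr8:113000001-128000000: 198 of 35154 RBBP4 regions and 149 of 20496 P300 regions. These members were chosen by RBBP4 read density in the same tables, because it was high there. The RBBP4 levels below are therefore a description with no test, and the P300 libraries are the data that the choice did not use.

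NCI-H69 is an established human line from small cell lung cancer. The cells received siRNA against CSNK2B or non-targeting siRNA, in both cases with Lipofectamine RNAiMAX. They were crosslinked with formaldehyde 48 h later, and chromatin was immunoprecipitated with an antibody against RBBP4 or against P300. Each antibody had 1 knockdown and 1 control library, with 1 batch label per antibody, so neither arm had a replicate. Where RBBP4 and P300 differ below, antibody and batch label cannot be told apart. The 4 input DNA libraries were not used here, so no density below is relative to input.

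CSNK2B encodes the regulatory subunit of protein kinase CK2. RBBP4 is a histone-binding WD-repeat protein shared by several chromatin complexes, among them the NuRD and Sin3 deacetylase complexes, PRC2 and the chromatin assembly factor CAF-1. P300 is a histone acetyltransferase that is found at active enhancers and promoters. MYC is a transcription factor and oncogene, and PVT1, next to it, is a long noncoding RNA gene.

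The authors listed, per antibody, regions that all had an unadjusted p below 0.05 in their comparison of knockdown with control. Each came with an RPKM value (reads per kilobase, scaled to the reads of the library) for each library. Reads per region were recovered from these values. The size of 1 read in RPKM gave a scaling total for each library. It was 1207945 in the RBBP4 knockdown library, 833181 in the RBBP4 control, 946392 in the P300 knockdown and 1092789 in the P300 control. These totals were taken as the reads over all tested regions, which is an assumption. A fold is the ratio of reads, knockdown over control, scaled to these totals, with a 95% exact (Clopper-Pearson) interval that covers counting error only. The log2 ratio is taken on RPKM with a pseudocount of 1, and density is given as reads per kb of region. Densities are not scaled to the totals, so only folds and log2 ratios compare knockdown with control. Higher and lower refer to the sign that the log2 fold change has in the authors' deposited table. The knockdown and control columns could be told apart by name alone, and a swap of the names would turn every direction below. Because only regions with a small p were listed, a region with many reads could enter the list with a smaller ratio than one with few. The lists also look cut by size of change. In the authors' deposited table the smallest log2 fold changes of RBBP4 members were 1.00 upward and -1.05 downward. Shares by direction, median ratios and folds below therefore describe listed regions only. Of 7 neuroendocrine marker genes, only NCAM1 had a listed region, with both antibodies, so the lists did not test the identity of the line. Of 4 markers of other cell types, COL1A1 had a region with both antibodies and PTPRC with P300 only.

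Listed RBBP4 regions were dense in reads along nearly the whole segment in both libraries, and 188 of the 198 were higher after knockdown. The median member held 203 reads per kb in the knockdown library, against 34.9 in listed regions elsewhere. In the control library it held 72.9 reads per kb, against 10.5 elsewhere. Knockdown density was thus 5.82 times and control density 6.97 times that of the rest of the list. The rest of chromosome 8, with 1419 regions, had medians of 34.0 and 9.72 reads per kb, near those of the other chromosomes. Over the 188 members that were higher after knockdown, the control median was 72.7 reads per kb, 9.79 times the 7.42 of higher regions elsewhere. These 198 regions, 0.563% of the list and 1.10% of its length, held 6.76% of the listed knockdown reads and 5.55% of the listed control reads.

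The members were also wide and deeply covered. Their median width was 798.5 bp against 428 bp elsewhere, and their median was 225.5 reads over both libraries against 19 elsewhere. At like depth the order of widths turned: among regions of 200 to 400 reads, the median was 966 bp in members and 2627 bp elsewhere. At given reads a denser region is narrower, and the members were chosen for density, so this order followed from the choice. The 10 regions of the genome with most RBBP4 reads were all members, as were 47 of the first 50 and 83 of the first 100. Ranked by control density, 96 of the first 100 regions were members, and ranked by knockdown density 97 were. No member had 0 reads in a library, whereas 2148 regions elsewhere did. The 10th and 90th percentiles of control density were 43.7 and 107 reads per kb over the members, a 2.45-fold span. Among regions of 100 reads or more this span was 2.25-fold in members and 2.52-fold elsewhere, so a narrow span was shared by deep regions outside.

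**Figure D1:**
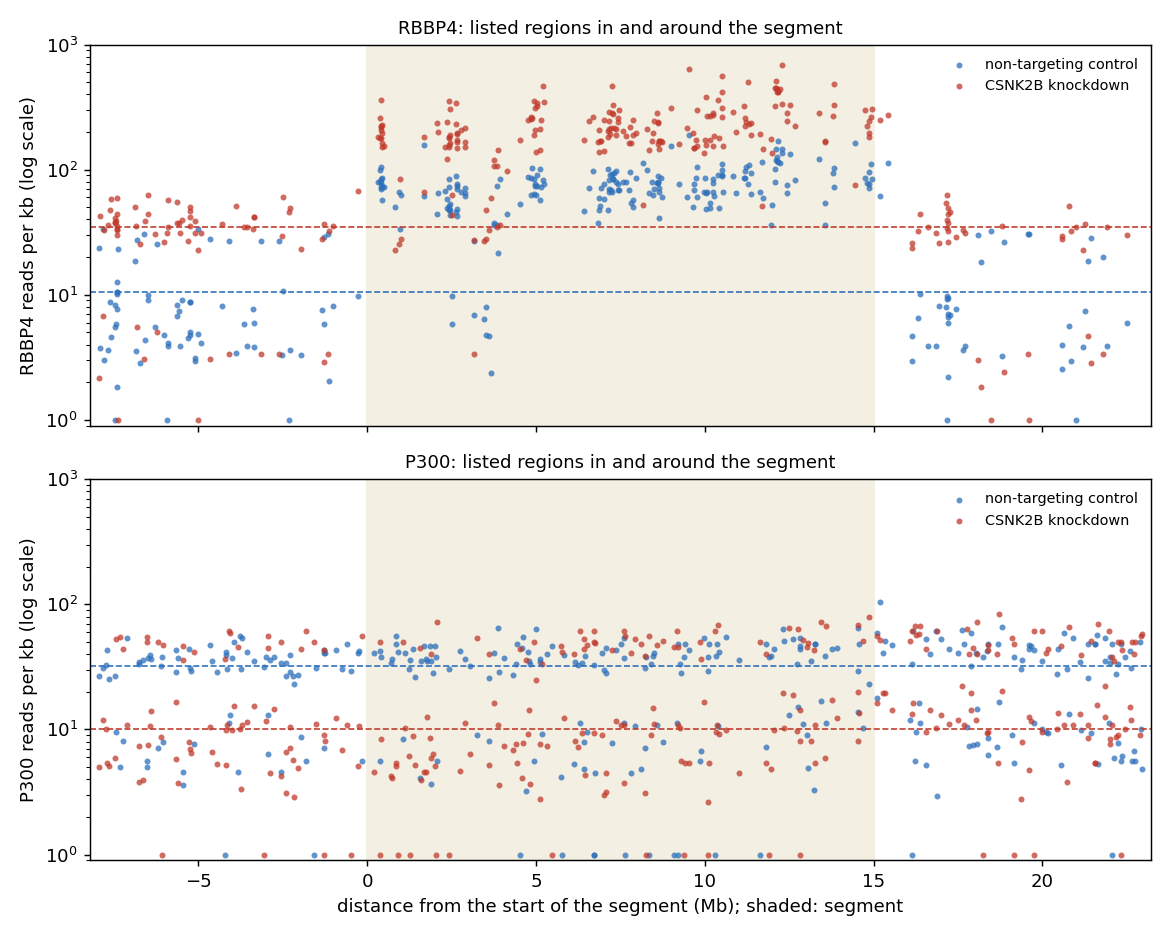
Read density of each listed region (reads per kb, log scale) in the control (blue) and knockdown (red) library, against the distance from the start of the segment, for RBBP4 (top) and P300 (bottom). Dashed lines are the medians of listed regions outside the segment, and values of 0 are drawn at 1. In the shaded segment most RBBP4 points lie above the dashed line of their library (control 10.5, knockdown 34.9), with points below it near 1 Mb, 2.5 Mb and 3 to 4 Mb, while the P300 medians stay near theirs.

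The high density began and ended between neighbouring listed regions. The last listed region before the segment, at 112.710 Mb, had 42 knockdown and 6 control reads, and 9.72 control reads per kb. The first member, chr8:113306207-113306869, had 120 and 53 reads and 79.9 control reads per kb. It lies inside CSMD3, a very large gene for a membrane protein with CUB and Sushi domains. At the far edge the dense stretch ran past 128 Mb, with regions of 164 and 41 reads and of 192 and 79 reads before 128.5 Mb. The next region, beyond 129 Mb, had 11 and 2 reads and 4.71 control reads per kb. In the 8 Mb before the segment the control median of the 57 higher regions was 5.04 reads per kb, and in the 30 higher regions between 129 and 136 Mb it was 5.19.

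Counted per Mb, 14 of the 15 bins had a median density, in the library with fewer reads, above 3 times that of listed regions outside. This density is the lower of the knockdown and control values, taken region by region. Of these 14, the bin at 114 Mb held only 2 regions, 1 higher and 1 lower. Among 2458 bins of the genome with at least 5 regions, the 13 highest were all in the segment, with 26.4 reads per kb in the highest bin outside it. The bin at 125 Mb was the densest, with medians of 117 control and 417 knockdown reads per kb in its 15 regions. The exception was the bin at 116 Mb, where the 13 regions had a median of 8.02 by this measure. Their medians in the separate libraries were 21.6 control and 36.3 knockdown reads per kb.

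The dip in that bin lay between neighbouring listed regions as well. The last dense region before it, at 115.899 Mb, had 148 knockdown and 49 control reads. Between 116 and 116.7 Mb, 7 regions had a control median of 6.36 reads per kb, a level like that outside the segment. The last of these, inside EIF3H, a gene for a translation initiation factor subunit, had 25 and 1 reads. The next region, also inside EIF3H, had 48 and 15 reads and 37.4 control reads per kb. From there to SLC30A8 at 117.2 Mb, the 5 higher regions had 21.6 to 43.9 control reads per kb, between the level of the dip and that of the segment. The bounds of this dip were chosen after the values were seen.

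Direction was nearly uniform for RBBP4. Of the 198 members, 188 (background 68.8% of listed regions) were higher after knockdown and 10 (background 31.2%) were lower. Deep regions elsewhere were as uniform: of regions with 100 reads or more, 163 of 165 members and 753 of 753 others were higher (background 99.8% over both). The authors' deposited table gave 186 higher members an adjusted p under 0.05 (background 48.3% of listed regions, and 17.8% of all 95329 tested), as had 4 lower ones (background 8.94% of listed regions, and 3.30% of all tested). Over the members, the authors' deposited table gave adjusted p-values from 1.40e-28 to 0.121. These rest on 1 library per arm, so they compare those libraries and not the conditions.

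The size of the difference was smaller than elsewhere. At least 2-fold higher were 106 members (background 64.9%), at least 2-fold lower were 10 (background 31.2%), and 82 were higher by less than 2-fold. All 10974 listed lower regions passed 2-fold, so the count of 10 was fixed by the listing. The median log2 ratio was 1.04 in the segment, 1.50 in the rest of chromosome 8 and 1.50 in the genome outside the segment. Deep regions can be listed with small ratios, so regions of like depth were set side by side. Depth is the sum of reads over both libraries, and the members were chosen for density. Regions of like depth therefore still differ in control density, and this comparison does not remove the effect of the choice or of the listing. Among regions of 200 to 400 reads, the median log2 ratio was 1.09 over 71 members and 2.13 over 69 regions elsewhere. In this class the members had 75.5 control and 209 knockdown reads per kb, against 13.5 and 85.3 elsewhere. Of regions with 100 reads or more, 93 of 165 members and 744 of 753 others were at least 2-fold higher (background 91.2% over both). With the authors' own scaling, which moves RBBP4 ratios up by 0.58 on the log2 scale before any pseudocount, all 188 higher members passed 2-fold. No higher member was listed with an authors' log2 fold change under 1.00, so this count was fixed by the listing.

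**Figure D2:**
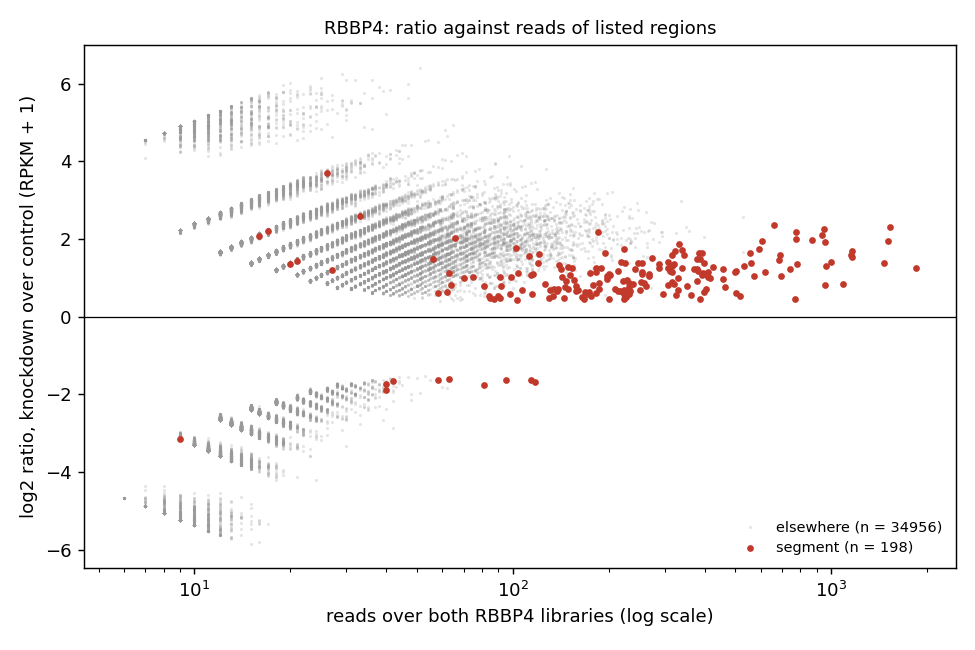
Log2 ratio of RPKM plus 1, RBBP4 knockdown over control, against reads over both libraries (log scale), for the 198 members (red) and the 34956 listed regions elsewhere (grey). At equal reads the members lie low among the higher regions, with a median of 1.09 against 2.13 between 200 and 400 reads. The members were chosen for density, and equal reads do not remove the effect of that choice.

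Among the 188 higher members, densities varied by like factors in both libraries, with a 90th percentile 2.50 times the 10th in the knockdown and 2.39 times in the control. Over these members, Spearman's rho with the log2 ratio was 0.39 for knockdown density and -0.37 for control density, and the libraries' densities correlated at 0.63. These values describe regions of the same 2 libraries, and each density is a term of the ratio, so no p is given.

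MYC carried the region with the most RBBP4 reads of the whole list. It lies at chr8:127733928-127738714, across one end of MYC and the facing end of CASC11, the neighbouring noncoding RNA gene. This region had 1433 knockdown and 411 control reads, or 299 and 85.9 reads per kb. The difference was 2.4-fold (2.15 to 2.69), for which the authors' deposited table gave 1.01e-13 as adjusted p. MYC had no listed P300 region. PVT1 had 6 RBBP4 regions, all higher, of which that with most reads had 415 and 116 reads (2.47-fold, 2.0 to 3.06). CASC8, another noncoding gene near MYC, held 1 region, and it was lower. It had 30 knockdown and 65 control reads, a 3.14-fold difference (2.01 to 5.02), for which the authors' deposited table gave 0.036 as adjusted p. PCAT1, PRNCR1, CCAT1 and CCAT2, the other noncoding genes considered, had no listed RBBP4 region.

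Of the 51 protein-coding genes, 39 had a listed RBBP4 region in the gene or within 3000 bp of it (background 51.6% of 20052 genes). A higher region was present at 38 (background 46.4%), and 37 had one that the authors' deposited table gave an adjusted p under 0.05 (background 38.3%). A lower region was present at 3 genes (background 14.8%), and 36 had a region within 3000 bp of one of their ends (background 38.1%). The 12 genes with no region were TNFRSF11B, COLEC10, MAL2, FAM83A, KLHL38, ANXA13, FAM91A1, TYW2, RNF139, TATDN1, NDUFB9 and POU5F1B, and none of these had a P300 region. In the gene groups below, a gene is given by its region with most reads, and neighbouring genes can share one region.

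**Figure D3:**
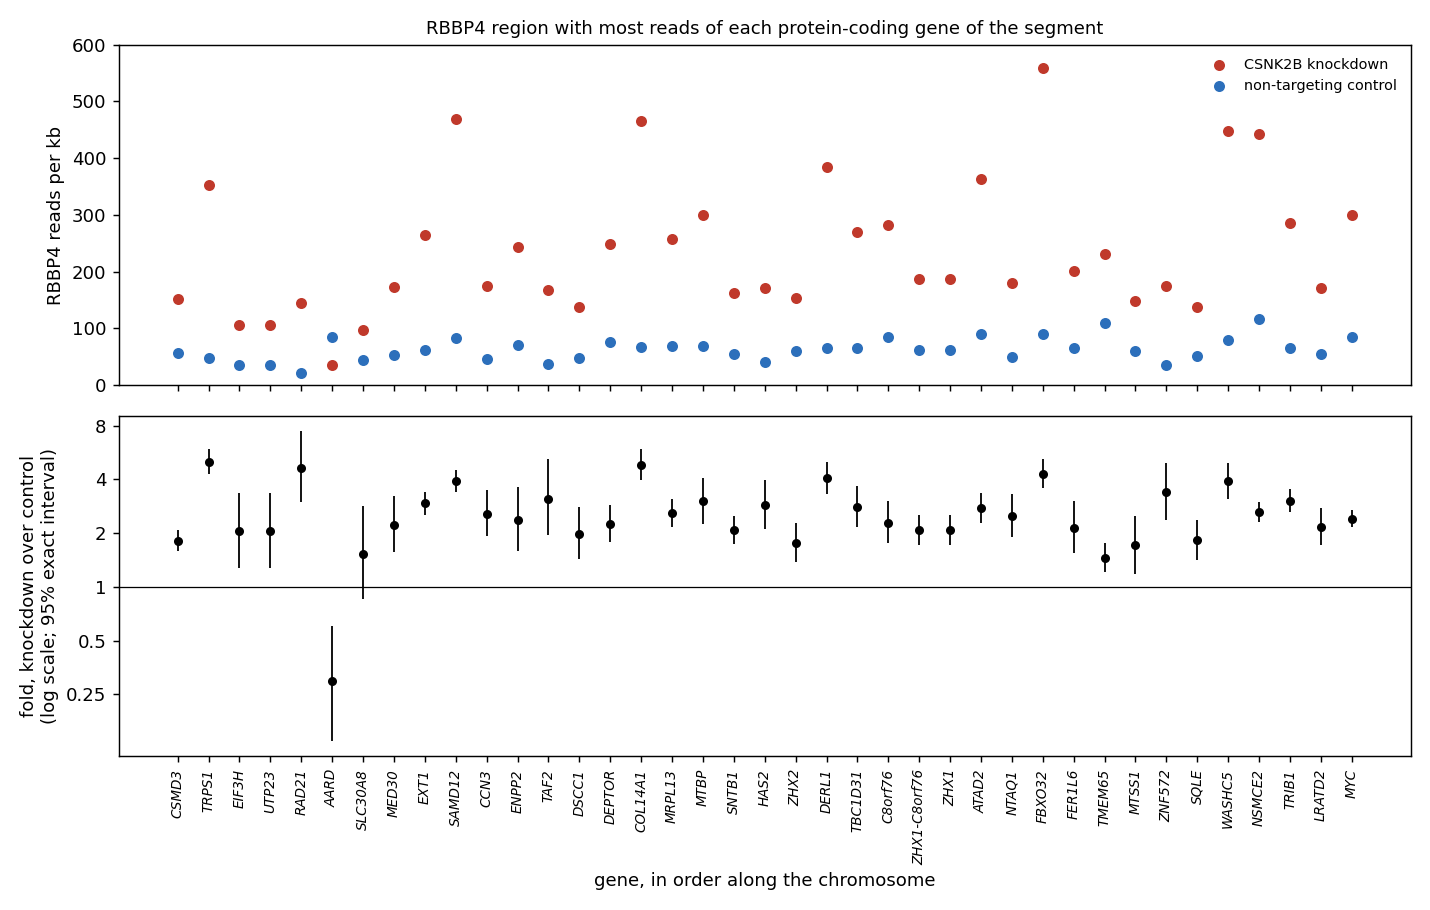
RBBP4 region with most reads of each of the 39 protein-coding genes with one, in order along the chromosome: reads per kb in each library (top) and fold of knockdown over control with its 95% exact interval (bottom, log scale). The folds run from 0.296 at AARD, the only gene below 1, to 5.01 at TRPS1.

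Of the 8 transcription genes, 7 had a region, all with a higher one, and the exception was POU5F1B. TRPS1, a GATA-type zinc finger repressor, had 17 regions, the most of any gene. Its region at chr8:115417073-115420877, inside the gene, had 1344 knockdown and 185 control reads, the largest fold among the genes' top regions at 5.01 (4.29 to 5.88). The adjusted p of 1.40e-28 was the lowest of all members in the authors' deposited table. Folds over the 17 regions of TRPS1 ran from 1.38 to 5.17, and all were above 1. Within TRPS1, a pair of neighbouring regions near 115.51 Mb with 57 and 9 reads and with 15 and 2 reads had only 9.84 and 5.81 control reads per kb, against a median of 48.8 for the gene. TAF2, a subunit of the general factor TFIID, had 99 and 22 reads at an end (3.10-fold, 1.94 to 5.18). MED30, a Mediator subunit, had 139 and 43 reads (2.23-fold, 1.57 to 3.22). The zinc finger and homeobox genes ZHX1 and ZHX2 had 428 and 142 reads (2.08-fold) and 220 and 86 reads (1.76-fold, 1.37 to 2.29). ZNF572, a zinc finger gene, had 186 and 38 reads (3.38-fold, 2.37 to 4.92).

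All 5 genes of replication and chromosome upkeep had a higher region, and RAD21 also had a lower one. RAD21 encodes a cohesin subunit. At one end it had 161 knockdown and 24 control reads, a 4.63-fold difference (3.0 to 7.43). At its other end, 935 bp outside the gene, it had 20 and 43 reads, which was 3.12-fold lower (1.79 to 5.59), and the authors' deposited table gave 0.119 as its adjusted p. The ends of RAD21 thus differed in direction. NSMCE2, a SUMO ligase of the SMC5/6 complex, had 10 regions with folds from 1.70 to 3.24. Its top region had 1156 and 304 reads (2.62-fold, 2.31 to 2.99). The stretch around NSMCE2, from 125.05 to 125.4 Mb, was the densest of the segment, where 11 regions had a control median of 119 reads per kb. ATAD2, a bromodomain ATPase, had 547 and 137 reads (2.75-fold, 2.28 to 3.35). MTBP, an MDM2-binding protein gene, had 257 and 59 reads (3.0-fold, 2.26 to 4.06). DSCC1, of the cohesion-linked clamp loader, had 147 and 51 reads (1.99-fold, 1.44 to 2.79).

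In the matrix and secreted group, 5 of 7 genes had a higher region and none a lower one. COL14A1, the gene of a fibril-associated collagen, had 14 regions with folds from 1.40 to 4.81. Its top region had 830 knockdown and 119 control reads (4.81-fold, 3.97 to 5.88). EXT1, a heparan sulfate polymerase gene, had 12 regions with folds from 1.46 to 3.81, and its top one had 943 and 222 reads (2.93-fold, 2.53 to 3.41). HAS2, a hyaluronan synthase gene, had 220 and 53 reads at an end (2.86-fold, 2.11 to 3.94). CCN3, a secreted matricellular protein gene, had 227 and 61 reads (2.57-fold, 1.93 to 3.46). ENPP2, which encodes autotaxin, had 110 and 32 reads (2.37-fold, 1.59 to 3.63).

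Of the 4 ubiquitin and protein quality genes, 3 had a region, with some of the largest folds. FBXO32, a muscle-atrophy F-box gene, had 805 knockdown and 129 control reads inside the gene (4.3-fold, 3.57 to 5.22). At its end FBXO32 had 157 and 67 reads, a 1.62-fold difference. DERL1, of endoplasmic-reticulum-associated degradation, had 663 and 113 reads (4.05-fold, 3.31 to 4.99). TRIB1, a pseudokinase that brings substrates to the COP1 ubiquitin ligase, had 943 and 214 reads (3.04-fold, 2.62 to 3.54).

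In each of the protein synthesis and metabolism groups, 3 of 4 genes had a region, with no lower one. EIF3H and UTP23, a ribosome biogenesis gene, share an end region of 74 knockdown and 25 control reads (2.04-fold, 1.28 to 3.35). MRPL13, a mitochondrial ribosomal protein gene, had 614 and 164 reads (2.58-fold, 2.17 to 3.09). SQLE, squalene epoxidase of sterol synthesis, had 232 and 88 reads (1.82-fold, 1.42 to 2.35). TMEM65, a mitochondrial membrane protein gene, had 350 and 166 reads, the smallest fold above 1 at 1.45 (1.21 to 1.76). SLC30A8, the zinc transporter of insulin granules, had 40 and 18 reads, and its interval (1.53-fold, 0.859 to 2.84) spans 1. The median log2 ratio of the top regions was 0.61 over the 3 metabolism genes with a region and 1.26 over all 39 genes.

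Among 10 signalling and membrane genes, 7 had a higher region and MTSS1 also had a lower one. SAMD12, a sterile alpha motif gene, had 1280 knockdown and 227 control reads (3.89-fold, 3.37 to 4.50). WASHC5, a subunit of the endosomal WASH complex, had 515 and 91 reads (3.90-fold, 3.12 to 4.93). CSMD3 had 789 and 300 reads at an end (1.81-fold, 1.59 to 2.08), and its 12 regions had folds from 1.36 to 3.40. SNTB1, a syntrophin gene, had 520 and 173 reads (2.07-fold, 1.74 to 2.48). DEPTOR, an mTOR-binding inhibitor gene, had 313 and 96 reads (2.25-fold, 1.78 to 2.86). MTSS1, a gene for a membrane-bending actin regulator, had 104 and 42 reads at an end (1.71-fold, 1.18 to 2.51). Inside the gene, MTSS1 had 36 and 81 reads, 3.26-fold lower (2.18 to 4.97), and the authors' deposited table gave 0.014 as its adjusted p.

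The 10 lower RBBP4 members had a control density near that of the rest of the segment and a lower knockdown density. Their medians were 35.4 knockdown and 79.5 control reads per kb, beside 209 and 72.7 in the higher members. Elsewhere lower regions had 5.29 and 30.3 reads per kb. The median log2 ratio of the 10 was -1.67, against -2.76 elsewhere. Of these, 4 lie between CSMD3 and TRPS1, and 9 were 3.12 to 3.82-fold lower. The other, in the dip, had 1 and 8 reads (11.6-fold, 1.55 to 515). The region near one end of AARD, a small gene close to RAD21, had 12 and 28 reads (3.38-fold lower, 1.67 to 7.30), and it was the only RBBP4 region of that gene.

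RBBP4 was not raised at gene ends alone. Of the members, 41 (20.7%) lay at a protein-coding gene end, 87 (43.9%) inside a gene and 70 (35.4%) between genes, against 22.4%, 35.1% and 42.5% elsewhere. At ends the median densities were 59.6 control and 170.5 knockdown reads per kb, inside genes 77.8 and 233, and between genes 76.4 and 196. Elsewhere, control density was 6.87 at ends and 14.5 between genes. Of the 19 genes with regions both at an end and inside, the inside regions had the higher control density in 15, the higher knockdown density in 14 and the higher log2 ratio in 13. The median log2 ratio was 1.14 at ends, 1.12 inside and 0.90 between genes, and it was 1.87, 1.42 and 1.20 elsewhere. A region between genes near TMEM65, chr8:124283245-124284574, had 671 and 102 reads and a 4.54-fold difference (3.68 to 5.64). The densest member between genes, chr8:122537510-122538396, lay 241983 bp from ZHX2 and had 571 and 169 reads, or 644 and 190.5 reads per kb.

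**Figure D4:**
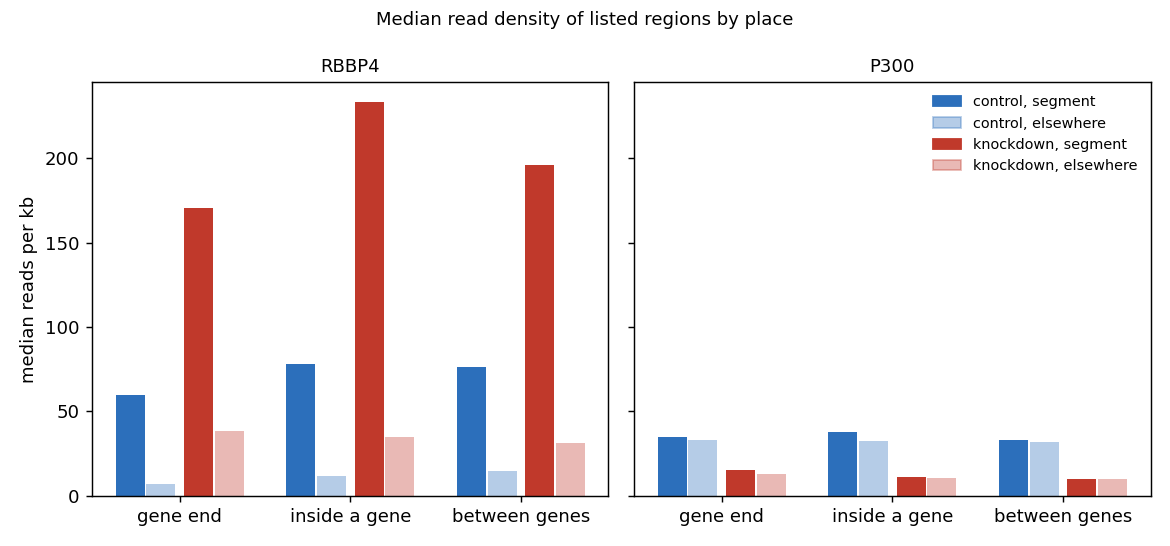
Median reads per kb of listed regions at protein-coding gene ends, inside genes and between genes, in the control (blue) and knockdown (red) library, for the segment (dark) and elsewhere (pale). For RBBP4 every dark bar is above its pale one (control 59.6 against 6.87 at gene ends), and for P300 the bars of each pair are of like height.

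Listed P300 regions in the same 15 Mb had densities near those of listed regions elsewhere. Of 134012 tested P300 regions, 20496 were listed. These held 11.8% of the knockdown total and 13.9% of the control total. P300 density at unlisted regions was not seen. The median member held 10.3 knockdown and 34.3 control reads per kb, against 10.2 and 32.4 elsewhere. None of the 15 bins of 1 Mb was raised, and their ranks among 1928 bins ran from 17 to 1671. The bin at 128 Mb, just past the segment, where the RBBP4 density was still high, was raised for P300. Its 6 regions had a median of 18.7 reads per kb in the library with fewer reads, 3.16 times that elsewhere. Among bins with at least 5 regions, that bin was 1 of 2 raised ones outside the segment. P300 members had 7 to 31 reads over both libraries, with a median of 12, so the precision of any single region is low. Of the 149, 51 (background 34.7%) were higher and 98 (background 65.3%) lower after knockdown. All 51 were at least 2-fold higher (background 34.7%) and all 98 at least 2-fold lower (background 64.3%). All 7121 listed higher P300 regions passed 2-fold, so the count of 51 was fixed by the listing. The share that was higher, 34.2%, was near the background, and so was the median log2 ratio of -1.66 against -1.70 elsewhere. The authors' deposited table gave 0 members an adjusted p under 0.05 (background 0.00% in each direction), and their lowest was 0.260. By place, 8 members (5.37%) lay at a gene end, 37 (24.8%) inside a gene and 104 (69.8%) between genes, against 5.39%, 39.4% and 55.2% elsewhere.

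**Figure D5:**
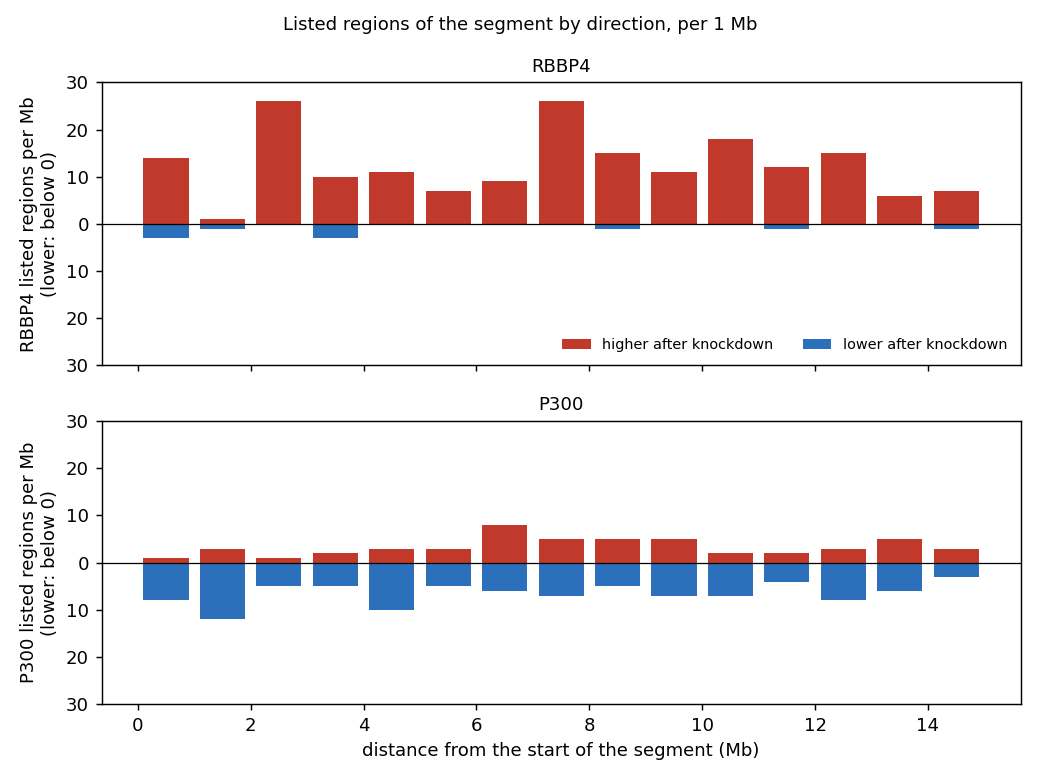
Listed regions per 1 Mb of the segment, higher after knockdown (red, above 0) and lower (blue, below 0), against the distance from the start of the segment, for RBBP4 (top) and P300 (bottom). RBBP4 regions are mostly higher in 14 of 15 bins (188 of 198 in all), and P300 regions are mostly lower in 12 (98 of 149 in all).

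P300 regions were present at 22 of the 51 genes (background 23.6%), each of which also had an RBBP4 region. A higher P300 region was present at 10 genes (background 11.5%) and a lower one at 19 (background 17.7%), and 7 genes had both. One within 3000 bp of an end of the gene was present at 8 (background 6.03%). The shares of the 51 genes with any, a higher, a lower or an end P300 region were all above their backgrounds. No test of this was made. The direction was mixed along the segment: the bin at 119 Mb, with CCN3 and TAF2, had 8 higher and 6 lower regions, and the bin at 114 Mb, between CSMD3 and TRPS1, had 3 and 12. TAF2 had 11 knockdown reads and 1 control read (12.7-fold, 1.85 to 547). ATAD2 had 13 and 2 reads in one region (7.51-fold, 1.70 to 68.5) and 3 and 12 in another (3.46-fold lower, 0.935 to 19.1). SAMD12 likewise had a higher region of 18 and 5 reads (4.16-fold, 1.49 to 14.3) and a lower one of 1 and 13 (11.3-fold, 1.69 to 478). RAD21 had 2 and 12 reads (5.20-fold lower, 1.16 to 47.8), and TBC1D31, a gene of centriolar satellites, had 1 and 11 (9.53-fold lower, 1.38 to 410). These intervals are wide, and that of the lower ATAD2 region includes 1. ZHX2 had 3 regions, of which one with 11 and 2 reads was higher (6.35-fold, 1.39 to 59.0). The ZHX2 region with most reads was lower, with 4 and 13 reads (2.81-fold, 0.870 to 11.8).

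The antibodies met at few places. Only 6 RBBP4 members (3.03% of them) overlapped a P300 member by 1 bp or more, and these were 6 P300 members (4.03%). Elsewhere 311 of 34956 RBBP4 regions (0.890%) overlapped a P300 region. The wider RBBP4 members cover more sequence per region, and the part of width in this difference was not tested. RBBP4 was higher at all 6, and P300 was higher at 4 and lower at 2. Both were higher in ATAD2 (RBBP4 547 and 137 reads, P300 13 and 2), at an end of CCN3 (227 and 61, P300 11 and 2), at an end of SNTB1 (520 and 173, P300 9 and 1) and in PVT1 (231 and 98, P300 24 and 7). The P300 region in PVT1 was the deepest of these, with a 3.96-fold difference (1.66 to 10.9). In CSMD3, where RBBP4 had 277 and 122 reads, P300 had 0 and 8. With 3 reads set as the floor for a count of 0, P300 was 2.31-fold lower there. Its interval, as knockdown over control and without the floor, was 0 to 0.676. At the shared end of EIF3H and UTP23, P300 had 6 and 15 reads and was 2.17-fold lower. The interval of that ratio, as knockdown over control, was 0.147 to 1.26 and includes 1.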

How the data were processed

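The series holds RBBP4 and P300 chromatin immunoprecipitation libraries of NCI-H69 cells, 1 per antibody and arm, and groups come from the sample titles. For each antibody the authors deposited a region table that gives, per the file headers, the RPKM of both libraries, a log2 fold change, a p-value and an adjusted p-value. Per the submitters' processing notes, the build was GRCh38 and the tools were DiffBind 3.4.11, MACS2 2.2.7.1, Bowtie2 2.4.5, ChIPseeker 1.28.3, Trim Galore 0.6.7 and FastQC. What each tool did is not given in the sources used here. Members, gene lists and bins were chosen with earlier results of these data known.

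RPKM times the printed width gave whole reads, within 0.01, for 98.3% of RBBP4 and 99.4% of P300 regions. For the others, which include 5 RBBP4 members and 1 P300 member, the counted width was solved from the deposited log2 fold change. The scaling totals, taken as the reads over all tested regions, were inferred from the size of 1 read. Applied to RPKM values rebuilt from the totals and widths used here, the recovery returned 100% of the 35154 RBBP4 and 20496 P300 regions. This result followed by construction, so whether the totals, widths and reads are right was not tested. Relative to the totals used here, the authors' own scaling moves log2 ratios by 0.58 for RBBP4 and by -0.44 for P300, toward the majority direction of each list. Each region carries the name of the arm whose peak call it came from, and this arm was the one with more signal for all 198 RBBP4 and 149 P300 members.

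Genes were assigned from RefSeq spans on GRCh38 with 3000 bp on either side, with no strand or exons. Named genes were the 12 with most RBBP4 reads, the 5 largest and 5 smallest ratios among regions of at least 100 reads, all genes with a lower region, the P300 genes with the largest ratios at or above the median level (at most 8 per direction), genes where the antibodies overlap, and a list of genes by name. The stretches bounded by eye were chosen after the values were seen. With 1 library per arm no test was made, intervals cover counting error only, and no sequence is printed. Alternatives tried were the pseudocount, the scaling, a minimum of 20 reads, a 4-fold threshold, the edges, the bin size, the overlap and the gene flanks. Work used Python 3.11.15, pandas 2.3.3, numpy 2.4.6, scipy 1.17.1, matplotlib 3.10.9 and bedtools 2.31.1.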

Additional observations from a re-analysis of the deposited data

How the results depend on the processing

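No paired analysis was possible because each antibody had 1 library per arm, and for the same reason none could be left out. Over 12 results, 59 alternatives were computed, of which 44 stayed near the reported value, 15 moved and 0 reversed. With the authors' scaling, the RBBP4 count at least 2-fold higher went from 106 to 188, its median log2 ratio to 1.63 and the P300 median to -2.19. The count of 188 is all higher members and was fixed by the listing. By construction, a 4-fold threshold left 12 RBBP4 regions higher and 1 lower, and 51 P300 regions lower. With at least 20 reads per region, 3 P300 regions were higher and 7 lower, their median log2 ratio was -1.09 and their density 13.3 reads per kb. With a pseudocount of 4 the P300 median was -1.41. Without the first and last Mb, 6 RBBP4 regions were lower. As the mean of both libraries, the density was 140.9 reads per kb for RBBP4 and 25.1 for P300, in place of 71.8 and 6.82 in the library with fewer reads. With bins of 0.5 Mb, 27 of 28 bins with a region were raised. Leaving out the bin at 116 Mb, an alternative chosen after seeing the data, moved none of the results it was computed for. P300 regions hold few reads, which limits their folds.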
